A study of Mus musculus with 12 samples.

Results

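Plac8l1, Ephx3, Gdpd2, Trim72, Lsmem1, Ube2v1 and Adig are 7 genes grouped here under the name enzyme and membrane genes. They gave higher signal in mouse pluripotent cells with a high mitochondrial membrane potential than in cells with a low one. They were chosen by the difference between high and low fractions on these same arrays, as 7 of the 25206 probe sets measured, so that difference is given for them as a description without a test. Each gene has 1 probe set, named by its Entrez gene number. The cells were female, had a C57BL/6 background and were of 2 kinds, embryonic stem cells (called ESC below) and induced pluripotent stem cells (called iPSC), grown without serum or feeder cells in 2iLIF medium on gelatin. Both were stained while undifferentiated with TMRM, a cationic dye that collects in mitochondria according to their membrane potential, and sorted by flow cytometry into cells of low and cells of high dye signal. The 4 groups, named ESC low and high and iPSC low and high, held 3 Affymetrix arrays each, numbered 2, 3 and 4 in the labels. How many ESC and iPSC lines were used, how the iPSC were made and how wide the sort gates were is not stated in the labels. No label says that the arrays of a group stem from separate cultures, so each p-value reflects only how far these arrays vary, and that variation may be technical.

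The 7 genes belong to unrelated families. Ephx3 is an epoxide hydrolase that adds water to fatty acid epoxides and takes part in building the lipid barrier of the skin. Gdpd2, also called GDE3, is a membrane-spanning glycerophosphodiester phosphodiesterase, an enzyme class that cleaves the head group from deacylated phospholipids. Ube2v1 resembles ubiquitin-conjugating enzymes but lacks the catalytic cysteine, and it works as the partner of Ube2n in making ubiquitin chains linked through lysine 63 (K63). Trim72, also called MG53, is a ubiquitin ligase best known from skeletal and heart muscle, where it gathers vesicles at tears of the plasma membrane. Adig, adipogenin, is a small membrane protein of adipocytes that is associated with lipid droplet formation. Lsmem1 is named as a leucine-rich single-pass membrane protein and Plac8l1 as a relative of the PLAC8-domain proteins, and the roles of both are little characterised.

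The sequence upstream of the start is shown for Trim72, Lsmem1 and Ube2v1, the 3 genes of the set with the highest high-to-low differences and the widest spread between equal arrays. Each run is the 250 bases before the RefSeq start in assembly GRCm38.p6, written 5′ to 3′ on the gene's strand, with matches to 2 common promoter elements in capitals. The capitals mark the CCAAT box in Trim72 and Lsmem1 (ATTGG on the opposite strand) and the GC box GGGCGG in Ube2v1 (CCGCCC where it is on the opposite strand). Trim72 lies on the plus strand at chr7:128004128-128004377, Lsmem1 on the minus strand at chr12:40199316-40199565, and Ube2v1 on the minus strand at chr2:167632006-167632255.
Trim72: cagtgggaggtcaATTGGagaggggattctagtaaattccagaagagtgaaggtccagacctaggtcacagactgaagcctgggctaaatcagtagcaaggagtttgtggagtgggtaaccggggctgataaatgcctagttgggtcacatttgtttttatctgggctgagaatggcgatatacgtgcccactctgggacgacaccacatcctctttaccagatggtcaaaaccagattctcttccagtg
Lsmem1: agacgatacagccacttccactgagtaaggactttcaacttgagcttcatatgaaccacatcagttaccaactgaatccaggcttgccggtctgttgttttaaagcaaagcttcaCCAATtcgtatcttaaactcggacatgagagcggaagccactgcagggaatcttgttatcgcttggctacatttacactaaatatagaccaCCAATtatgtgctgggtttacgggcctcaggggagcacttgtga
Ube2v1: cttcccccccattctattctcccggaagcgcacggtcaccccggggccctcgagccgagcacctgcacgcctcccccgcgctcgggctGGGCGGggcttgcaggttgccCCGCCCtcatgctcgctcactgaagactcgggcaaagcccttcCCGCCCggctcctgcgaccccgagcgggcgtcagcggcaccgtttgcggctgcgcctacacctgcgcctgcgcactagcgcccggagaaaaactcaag
The Ube2v1 window differed most from the other 2 in base composition. Over 300 bases (250 before to 50 after the start) it was 70.3% G or C with 33 CG pairs, against 50.7% and 5 for Trim72 and 45.3% and 8 for Lsmem1. The median of all 32851 windows in the table was 52.7% with 7 CG pairs.

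In the deposited log2 values, where 1 unit is a factor of 2, the 7 genes were higher in the high fraction in all 3 replicate numbers of both cell types. Averaged over ESC and iPSC, the difference was 1.74 for Lsmem1 (3.33-fold), 1.63 for Trim72 (3.09-fold), 1.62 for Ube2v1 (3.08-fold), 1.44 for Plac8l1 (2.72-fold), 1.27 for Ephx3 (2.42-fold), 1.18 for Gdpd2 (2.26-fold) and 0.99 for Adig (1.98-fold). In each of them the 3 high arrays lay above the 3 low arrays within ESC and within iPSC, which is a result of the choice, and 500 of the 25206 probe sets (1.98%) showed the same separation. Over all probe sets, 403 (1.6%) rose and 228 (0.905%) fell in the high fraction at a limma adjusted p under 0.05. With each array centred on its median these counts were 361 and 368, and centring removed a median shift of 0.04 between the fractions. In bulk RNA, a larger share of cells with a transcript and more transcript per cell cannot be told apart.

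**Figure D1:**
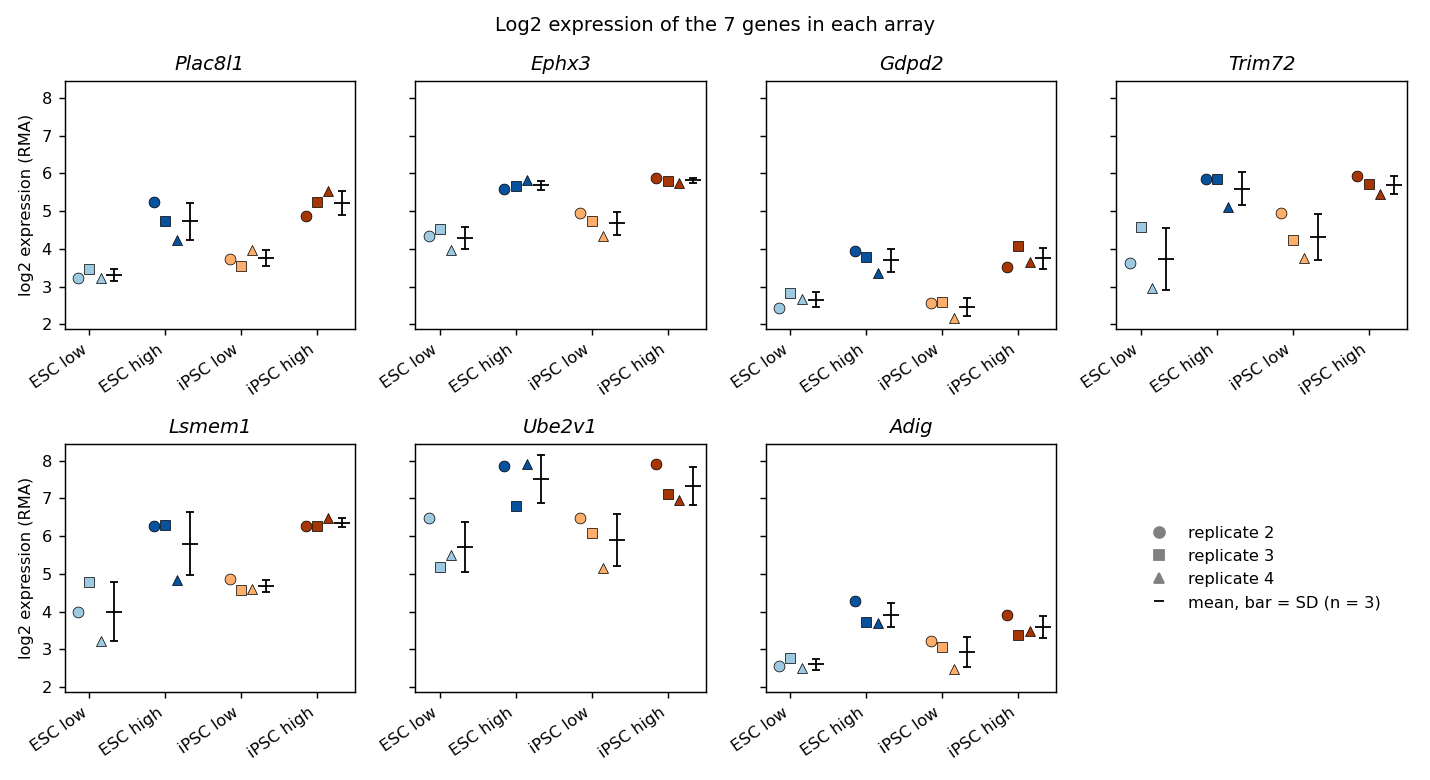
Log2 expression (RMA) of each of the 7 genes in the 12 arrays; marker shape gives the replicate number, and the horizontal tick and bar give the mean and SD of the 3 arrays of a group. The high groups sit above the low groups of the same cell type in every panel, with the narrowest gap in ESC for Lsmem1 (0.03) and the widest in iPSC for Lsmem1 (1.42).

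Of the enzymes, Ephx3 had the tightest values. It read 4.35, 4.54 and 3.97 in the ESC low arrays 2, 3 and 4 and 5.59, 5.66 and 5.82 in the ESC high arrays. The iPSC low arrays gave 4.95, 4.75 and 4.35 and the iPSC high arrays 5.89, 5.81 and 5.76. The fractions were apart by 1.06 in ESC and 0.82 in iPSC between the lowest high and the highest low array, and the high arrays of both cell types fell in a narrow band. Means were 4.28 ± 0.29 (SD, n = 3, as for all group means) and 5.69 ± 0.12 in ESC low and high, and 4.68 ± 0.31 and 5.82 ± 0.06 in iPSC low and high. The high-minus-low difference was 1.41 ± 0.16 (SE) in ESC and 1.14 ± 0.16 in iPSC.

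Of the 3 other epoxide hydrolases, 0 rose and 1 fell, with a median difference of 0.03. Ephx1, the microsomal enzyme that detoxifies foreign epoxides, fell in the high fraction by 1.19 ± 0.26 (limma, adjusted p = 0.0344), with means of 5.82 ± 0.62 and 4.75 ± 0.59 in ESC low and high and 5.74 ± 0.70 and 4.43 ± 0.15 in iPSC low and high. The high array was the lower one in 6 of 6 replicate-number pairs. The difference stayed between -1.38 and -1.01 in the 12 fits that left 1 array out, while the call ended in 9 of them, with adjusted p from 0.0529 to 0.0839, and held without ESC high 4, ESC low 2 or iPSC low 3. Ephx2, the soluble enzyme that hydrolyses arachidonic acid epoxides, differed by 0.03 ± 0.13 (limma, adjusted p = 0.941), a sign that turned to -0.01 when arrays were centred. Ephx4 differed by 0.11 ± 0.08 (limma, adjusted p = 0.558).

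Around Ephx3 in the skin, 12 genes of the epidermal lipid barrier were measured, and 1 rose while 0 fell. The median difference of the 12 was 0.00, as it was over all probe sets. The gene that rose was Pnpla1, the acyltransferase that makes the linoleate-bound ceramides of the barrier, by 0.58 ± 0.14 (limma, adjusted p = 0.0450). Its means were 2.44 ± 0.11 and 2.76 ± 0.36 in ESC low and high and 2.45 ± 0.33 and 3.29 ± 0.20 in iPSC low and high. Leaving out 1 array kept the Pnpla1 difference between 0.47 and 0.67 but ended the call in 10 of 12 fits, with adjusted p from 0.0565 to 0.114, the exceptions being ESC high 4 and iPSC low 2. The lipoxygenases Alox12b and Aloxe3, which act before the hydrolase step, differed by -0.02 and -0.09 and did not pass.

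Gdpd2 gave 2.43, 2.82 and 2.68 in ESC low and 3.95, 3.79 and 3.35 in ESC high. In iPSC its low arrays read 2.58, 2.60 and 2.17 and its high arrays 3.53, 4.07 and 3.65. The fractions did not overlap, and the gap was narrower in ESC (0.53) than in iPSC (0.94). Group means were 2.65 ± 0.20, 3.70 ± 0.31, 2.45 ± 0.24 and 3.75 ± 0.28 in ESC low, ESC high, iPSC low and iPSC high, and the difference was 1.05 ± 0.19 (SE) in ESC and 1.30 ± 0.19 in iPSC. Values carry no detection calls, so it is unknown whether the low-fraction signal was above background.

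Of the 6 other glycerophosphodiester phosphodiesterases, 0 rose and 0 fell in limma's fit, 0 had an unadjusted p under 0.05, and 0 passed with the replicate block or the variance trend. Gpcpd1, which hydrolyses glycerophosphocholine in the cytosol, had the lowest p of them with a difference of -0.23 ± 0.11 (limma, adjusted p = 0.344). Gdpd5 (GDE2), the transmembrane relative known from motor neuron differentiation, differed by 0.05 ± 0.08 over both cell types. Gde1, Gdpd1, Gdpd3 and Gdpd4 differed by -0.04, 0.08, 0.08 and -0.07.

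Ube2v1 varied more between equal arrays than Ephx3 and Gdpd2 did. Its ESC low arrays read 6.47, 5.17 and 5.49, and its ESC high arrays 7.85, 6.80 and 7.92. The iPSC low arrays gave 6.48, 6.08 and 5.15, against 7.92, 7.12 and 6.97 in iPSC high. Both fractions were spread over more than a unit within ESC, and the gap between them was 0.33 in ESC and 0.49 in iPSC. The difference per replicate number ran from 1.04 to 2.42, and the means were 5.71 ± 0.67 and 7.52 ± 0.63 in ESC low and high and 5.90 ± 0.68 and 7.33 ± 0.51 in iPSC low and high. The difference was 1.81 ± 0.42 (SE) in ESC and 1.43 ± 0.42 in iPSC. Ube2v1 has a close paralog, Ube2v2, and the transcript of its neighbour Tmem189 can read through into it, so the copy or transcript behind the signal is uncertain.

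Neither of those 2 genes had a difference near that of Ube2v1. Ube2v2, named here after its values were seen, differed by -0.11 ± 0.12 (limma, adjusted p = 0.743), with group means from 5.54 to 5.88. Tmem189 differed by -0.03 ± 0.09 (limma, adjusted p = 0.921), with group means from 7.96 to 8.11.

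The catalytic partner Ube2n was higher in the high array of 6 of 6 pairs, by 0.50 ± 0.13 on average, but did not pass in the fit without pairing (limma, adjusted p = 0.0675). It passed with the replicate number as a block (adjusted p = 0.0137) and when ESC low 4 was left out (0.61, adjusted p = 0.0167). Its means were 4.18 ± 0.39 and 4.91 ± 0.26 in ESC low and high, and 4.48 ± 0.18 and 4.74 ± 0.09 in iPSC low and high. Otub1, a deubiquitinase that binds Ube2n and restrains it, differed by 0.23 ± 0.06 (limma, adjusted p = 0.0771) and passed when the variance was allowed a trend (adjusted p = 0.0237). Of the 17 genes of K63 chain formation, reading and removal other than Ube2v1, 0 rose and 0 fell in limma's fit without the block. With the replicate block 1 passed, and with the variance trend 2 did (1 higher, 1 lower). Unadjusted p was under 0.05 for 5: Ube2n and Otub1 were higher, and Rnf168 (-0.20), Abraxas1 (-0.21) and Cyld (-0.19) were lower. The median difference of the 17 was -0.09 against 0.00 for all probe sets.

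Trim72 read 3.64, 4.59 and 2.96 in ESC low and 5.85, 5.86 and 5.10 in ESC high. Its iPSC low arrays gave 4.95, 4.23 and 3.75, and its iPSC high arrays 5.94, 5.71 and 5.45. The low arrays were the scattered ones in both cell types, yet none reached a high array of its cell type, and the gap was 0.50 in each. Means were 3.73 ± 0.82 and 5.60 ± 0.44 in ESC low and high and 4.31 ± 0.61 and 5.70 ± 0.24 in iPSC low and high. The difference was 1.87 ± 0.38 (SE) in ESC and 1.39 ± 0.38 in iPSC.

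Among the 21 other measured genes of plasma membrane repair (dysferlin and myoferlin, caveolae, annexins, calpains and ESCRT components), 0 rose and 0 fell in limma's fit without the block, 2 had an unadjusted p under 0.05, and 1 passed with the replicate block. The median difference was 0.01. Cavin4, the caveola coat protein of muscle, was the one that passed with the block: 0.49 ± 0.15, adjusted p = 0.113 without the block and 0.0245 with it, higher in the high array of 6 of 6 pairs. Its means were 4.30 ± 0.23 and 4.92 ± 0.16 in ESC low and high, and 4.68 ± 0.46 and 5.03 ± 0.24 in iPSC low and high. Pdcd6ip (ALIX), which recruits ESCRT to wounds, differed by -0.16 ± 0.06 (limma, adjusted p = 0.237). Dysf, the ferlin that works with Trim72 in muscle, differed by -0.04 and did not pass.

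Skeletal and heart muscle markers were examined because Trim72 is a muscle gene. Of 15 markers 1 rose and 0 fell, with a median difference of 0.08. Acta1, skeletal muscle actin, rose by 0.75 ± 0.11 (limma, adjusted p = 0.0037), with means of 3.82 ± 0.13 and 4.58 ± 0.18 in ESC low and high and 4.23 ± 0.31 and 4.95 ± 0.16 in iPSC, and the call held in 12 of 12 fits that left 1 array out. The muscle regulators Myod1 and Myog differed by -0.01 and 0.12 and Ckm, muscle creatine kinase, by 0.09, and none of these 3 passed. The mean over the 15 markers ran from 3.15 to 3.27 in the ESC low arrays, 3.14 to 3.25 in ESC high, 3.05 to 3.15 in iPSC low and 3.23 to 3.38 in iPSC high, so the fractions overlapped in ESC and not in iPSC. The part of these markers in the Trim72 values was not tested.

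Lsmem1 had the highest averaged difference of the set and also an ESC spread that almost closed the gap. The ESC low arrays read 4.0, 4.79 and 3.22 and the ESC high arrays 6.28, 6.29 and 4.83. In iPSC the low arrays gave 4.86, 4.57 and 4.59 and the high arrays 6.28, 6.28 and 6.49. ESC high 4 exceeded ESC low 3 by 0.03, whereas in iPSC the fractions were 1.42 apart and each was tight. Means were 4.0 ± 0.79 and 5.80 ± 0.84 in ESC low and high, and 4.68 ± 0.16 and 6.35 ± 0.12 in iPSC low and high. The difference was 1.80 ± 0.39 (SE) in ESC and 1.67 ± 0.39 in iPSC. The same-named Lsmem2 differed by 0.16 ± 0.11 (limma, adjusted p = 0.535), the only other gene of that name that was measured.

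Adig had the smallest difference of the 7 and the most unequal one between the cell types. It read 2.55, 2.76 and 2.50 in ESC low against 4.29, 3.73 and 3.71 in ESC high. The iPSC low arrays gave 3.23, 3.06 and 2.48 and the iPSC high arrays 3.92, 3.38 and 3.48. The ESC fractions were 0.95 apart, while in iPSC the lowest high array, number 3, was only 0.15 above the highest low array. Means were 2.60 ± 0.14, 3.91 ± 0.33, 2.93 ± 0.40 and 3.59 ± 0.29 in ESC low, ESC high, iPSC low and iPSC high. The difference was 1.30 ± 0.21 (SE) in ESC and 0.67 ± 0.21 in iPSC. The iPSC effect minus the ESC effect was -0.63 ± 0.30, a value given without a test because the effects chose the genes.

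Adipocyte and lipid droplet genes were examined because Adig is a fat cell gene. Of 19 measured apart from it, 0 rose and 0 fell in limma's fit, with the replicate block or with the variance trend, and 4 had an unadjusted p under 0.05. Their median difference was 0.02. The lowest p belonged to Bscl2 (seipin), which organises lipid droplet assembly in the endoplasmic reticulum, at 0.21 ± 0.07 (limma, adjusted p = 0.164). Next were Cidea, a lipid droplet fusion protein, and Dgat1, each at 0.25 ± 0.09 (limma, adjusted p = 0.206). Fitm2 was the gene of the 4 that was lower, at -0.19 ± 0.08 (limma, adjusted p = 0.268). Pparg, the master regulator of fat cells, and the adipocyte hormone gene Adipoq differed by -0.11 and -0.03 and did not pass. The mean over the 19 genes lay between 3.80 and 4.01 in the 12 arrays. The fractions overlapped in ESC, while in iPSC the low arrays ran from 3.87 to 3.92 and the high arrays from 3.92 to 4.0.

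Plac8l1 read 3.22, 3.48 and 3.23 in ESC low and 5.24, 4.73 and 4.23 in ESC high. Its iPSC low arrays gave 3.74, 3.55 and 3.98 and its iPSC high arrays 4.88, 5.25 and 5.53. The low arrays were close together and the high arrays spread over about a unit in ESC, with gaps of 0.75 in ESC and 0.90 in iPSC. Means were 3.31 ± 0.15 and 4.73 ± 0.50 in ESC low and high and 3.76 ± 0.22 and 5.22 ± 0.32 in iPSC low and high. The difference was 1.42 ± 0.23 (SE) in ESC and 1.46 ± 0.23 in iPSC. The other PLAC8-domain genes did not pass: Plac8 differed by 0.24 ± 0.13 (limma, adjusted p = 0.380) and Cnfn, cornifelin of the cornified cell envelope, by 0.15 ± 0.07 (limma, adjusted p = 0.280).

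**Figure D2:**
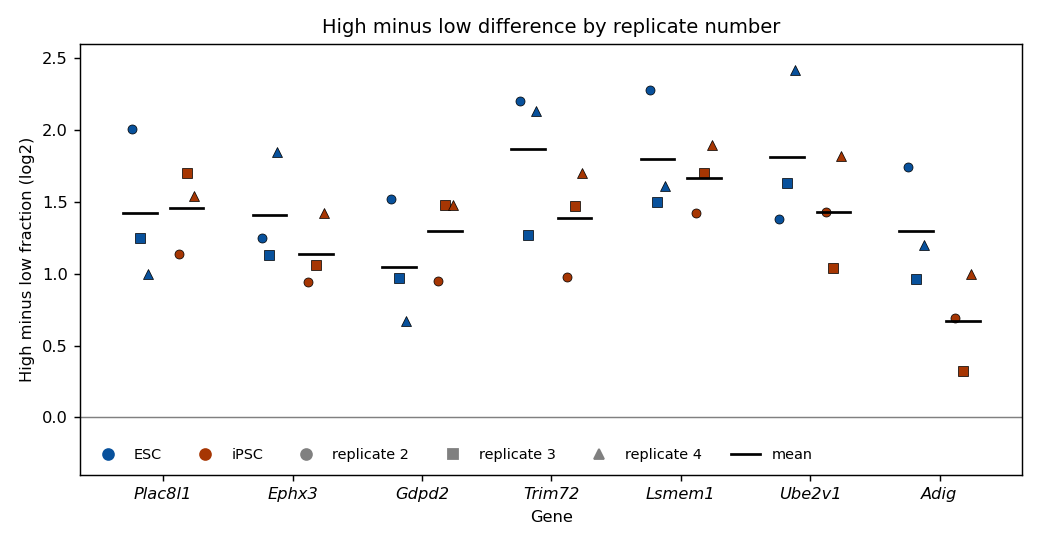
High minus low difference (log2) of each gene by replicate number, ESC in blue and iPSC in orange; the black line is the mean of 3. All 6 differences of each gene lie above 0, from 0.32 for Adig in iPSC (replicate 3) to 2.42 for Ube2v1 in ESC (replicate 4).

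The 7 genes did not keep one order of replicates. In ESC, replicate 2 gave the highest difference for Plac8l1 (2.01), Gdpd2 (1.52), Trim72 (2.20), Lsmem1 (2.28) and Adig (1.74), whereas replicate 4 did for Ephx3 (1.85) and Ube2v1 (2.42). In iPSC, replicate 2 gave the lowest difference for Plac8l1 (1.14), Ephx3 (0.94), Gdpd2 (0.95), Trim72 (0.98) and Lsmem1 (1.42). Equal numbers were not read as pairs of ESC with iPSC arrays, and the labels do not say whether a number means the same in both. The iPSC effect minus the ESC effect was 0.04 ± 0.32 (SE) for Plac8l1, -0.27 ± 0.23 for Ephx3, 0.25 ± 0.26 for Gdpd2, -0.48 ± 0.53 for Trim72, -0.12 ± 0.55 for Lsmem1 and -0.38 ± 0.59 for Ube2v1, each given without a test.

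The spread between equal arrays divided the set. It is not independent of the choice, since the separation of high from low arrays depends on it. The pooled within-group SD was 0.63 for Ube2v1, 0.59 for Lsmem1 and 0.57 for Trim72, above the SD of 99.7%, 99.6% and 99.5% of all probe sets. It was 0.33 for Plac8l1, 0.30 for Adig, 0.26 for Gdpd2 and 0.22 for Ephx3, above that of 94.3%, 92.4%, 86.8% and 76.9%. The median over all probe sets was 0.16, so each of the 7 varied more than a typical probe set. Trim72 and Lsmem1 deviated together in ESC: relative to their group means they stood at 0.86 and 0.79 in ESC low 3, at -0.77 and -0.79 in ESC low 4, and at -0.50 and -0.97 in ESC high 4. Ube2v1 stood at -0.54, -0.22 and 0.39 in those 3 arrays, so it shared their sign only in ESC low 4. Ube2v1 and Trim72 stood at 0.58 and 0.64 in iPSC low 2 and at -0.76 and -0.56 in iPSC low 4. In iPSC high 2 they stood at 0.58 and 0.24, and in iPSC high 4 at -0.36 and -0.25. Their signs differed in iPSC low 3 (0.18 and -0.08) and iPSC high 3 (-0.22 and 0.01). Ephx3 and Adig had the sign of Ube2v1 in every iPSC array. Lsmem1 stayed within 0.19 of its group means in the iPSC arrays. These deviations describe 12 arrays and were not tested.

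The comparison of the cell types was tested, because its difference does not rest on the high-minus-low difference that chose the genes. It asks whether iPSC and ESC differ in these genes when the fractions are weighted equally. Its p-values and intervals use the spread between equal arrays, which is not independent of the choice. None of the 7 passed (limma, 0 of 7 at an adjusted p under 0.05). Of all probe sets 231 (0.916%) passed with a higher value in iPSC and 493 (1.96%) with a lower one. Unadjusted p was under 0.05 for 3 of the 7, and the share of all probe sets under it was not counted. With replicate-number pairs as a random block, 463 probe sets passed instead of 724, with pairs averaged 63 did, and 0 of the 7 genes passed in either.

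Plac8l1, Lsmem1 and Ephx3 were the 3 with an unadjusted p under 0.05, each higher in iPSC. For Plac8l1 the mean was 4.02 in ESC and 4.49 in iPSC, a difference of 0.47 ± 0.16 (SE; 95% interval 0.12 to 0.81; limma, adjusted p = 0.166). It passed when ESC high 2 was left out (0.59, adjusted p = 0.0437), and its adjusted p ranged up to 0.524 over 19 alternatives. Lsmem1 averaged 4.90 in ESC and 5.51 in iPSC, a difference of 0.61 ± 0.28 (0.01 to 1.21; limma, adjusted p = 0.327). Ephx3 averaged 4.99 and 5.25, a difference of 0.26 ± 0.11 (0.01 to 0.51; limma, adjusted p = 0.308).

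The other 4 genes had intervals that reached both sides of 0. Trim72 differed by 0.34 ± 0.27 (-0.24 to 0.92) between iPSC and ESC, and Gdpd2 by -0.07 ± 0.13 (-0.36 to 0.21). Ube2v1 differed by 0.00 ± 0.29 (-0.64 to 0.64), and Adig by 0.00 ± 0.15 (-0.32 to 0.33). These intervals are unadjusted and do not show that the cell types were equal. The equal means of Adig combined a difference of 0.32 in the low fraction with one of -0.31 in the high fraction (SE 0.21 each), and those of Ube2v1 0.19 with -0.19 (SE 0.42 each).

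**Figure D3:**
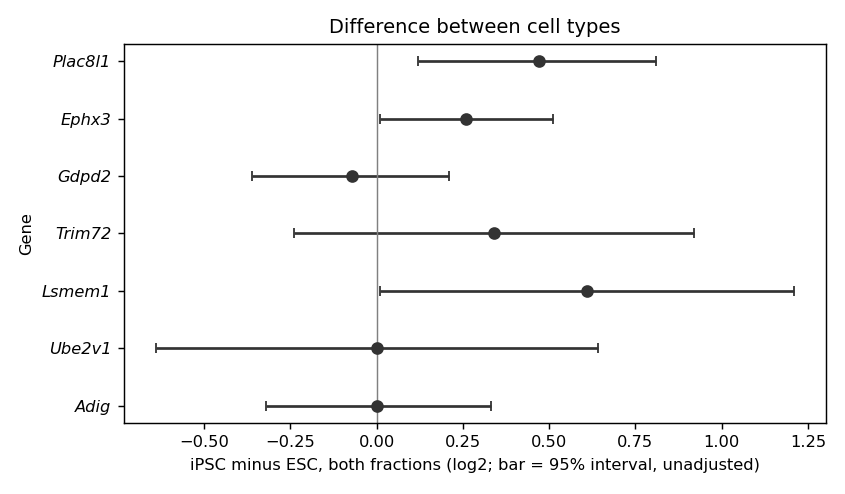
iPSC minus ESC difference (log2, averaged over low and high fractions) of the 7 genes, with unadjusted 95% intervals from the limma fit. The intervals of Plac8l1, Ephx3 and Lsmem1 lie above 0, and those of the other 4 include 0; none passed after adjustment over all probe sets.

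In the related lists, a few genes passed between the cell types in the fit without pairing, against 0.916% higher and 1.96% lower of all probe sets. Of 21 membrane repair genes, 3 were higher in iPSC and 0 lower: Anxa4 by 0.36 ± 0.08 (SE; limma, adjusted p = 0.0224), Anxa5 by 0.58 ± 0.14 (0.0497) and Ahnak by 0.54 ± 0.11 (0.0170). Of 17 K63 genes, 0 were higher and 2 lower: Chfr, a mitotic checkpoint ubiquitin ligase, by -0.40 ± 0.07 (limma, adjusted p = 0.0121), and Abraxas1, the scaffold of a K63-specific deubiquitinase complex, by -0.52 ± 0.08 (0.00503). Of 19 adipocyte and lipid droplet genes, 1 was higher and 0 lower: Plin3, a lipid droplet coat protein, by 0.31 ± 0.07 (limma, adjusted p = 0.0417). With pairs as a random replicate block, Anxa5 (adjusted p = 0.0721) and Plin3 (0.0779) no longer passed and the other 4 did, and with pairs averaged none of the 6 passed (adjusted p from 0.0679 to 0.211). Chfr and Abraxas1 passed in 12 of 12 fits that left 1 array out, Ahnak in 11 (not without iPSC high 4, adjusted p = 0.0525), Anxa4 in 7, Plin3 in 2 and Anxa5 in 1. The epoxide hydrolases, the epidermal lipid barrier genes, the phosphodiesterases and the PLAC8-domain genes had 0 in either direction.

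**Figure D4:**
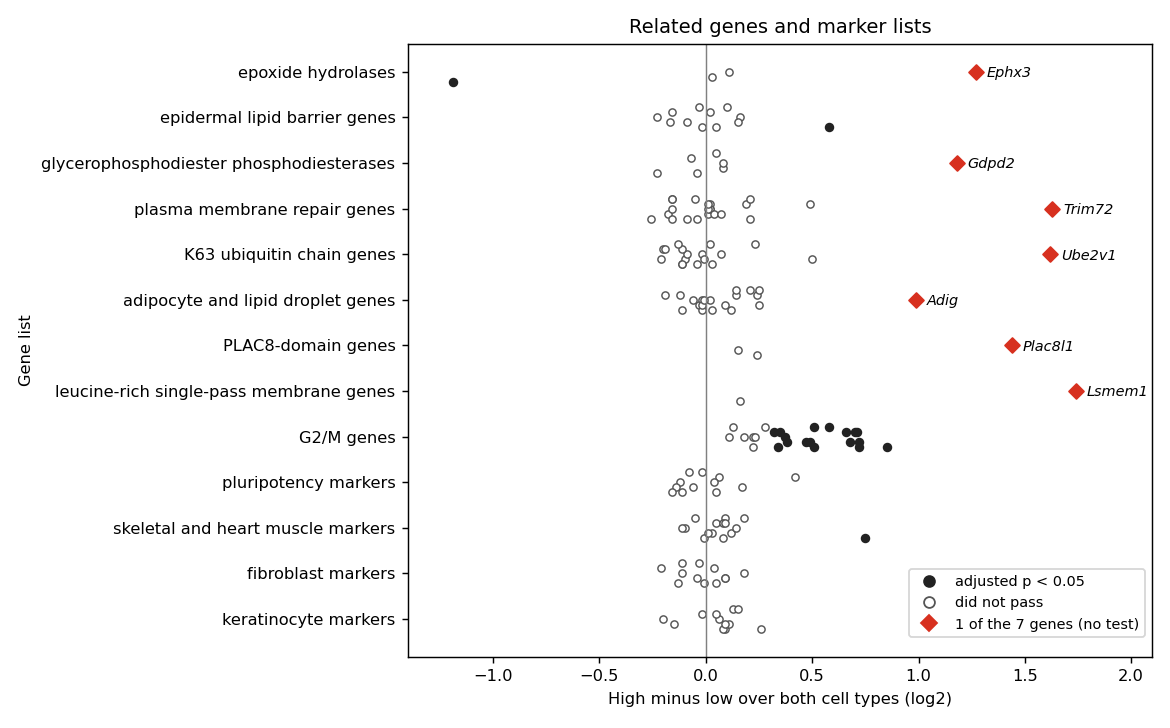
High minus low difference over both cell types (log2) of each measured gene of 13 lists; filled circles passed at a limma adjusted p under 0.05, open circles did not, and red diamonds are the 7 genes, which were not tested. Ephx1, Pnpla1, Acta1 and 17 of 24 G2/M genes are the filled circles.

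Other properties of the fractions moved alongside the 7 genes. G2/M genes, which drive entry into and passage through mitosis, were listed because earlier results of these data had shown them higher in the high fraction, so their direction is not independent evidence. Of 24 measured, 17 rose and 0 fell, with a median of 0.43 and differences from 0.11 to 0.85. Aurka (0.85), Ube2c (0.71), Nusap1 (0.70) and Aurkb (0.68) had the lowest p. The mean of the 24 ran from 7.62 to 7.68 in ESC low, 8.0 to 8.16 in ESC high, 7.69 to 7.75 in iPSC low and 8.11 to 8.19 in iPSC high, without overlap between the fractions. The part of cell cycle position in the values of the 7 genes was not tested.

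Pluripotency markers were listed for the labelled identity of the cells, though a lack of change between fractions cannot check identity. In the high fraction 0 of 12 rose or fell in limma's fit, with the replicate block or with the variance trend. An unadjusted p under 0.05 was found for 0 of them. The lowest group means belonged to Dppa3 (3.84 to 5.45) and Dppa5a (3.87 to 4.01). Nanog had group means from 10.49 to 10.62, Sox2 from 8.74 to 9.03 and Pou5f1 from 5.93 to 6.09, and they differed between fractions by -0.06, -0.12 and -0.11. Dppa3, a gene of the naive state, differed by 0.42 ± 0.20 between fractions (limma, adjusted p = 0.338) and was lower in iPSC, by -1.20 ± 0.20 (limma, adjusted p = 0.00687; 0.0118 with the random replicate block and 0.0782 with pairs averaged). Klf2, another such gene, was higher in iPSC by 0.39 ± 0.09 (limma, adjusted p = 0.0369) without pairing but did not pass with the random block (0.0609) or with pairs averaged (0.190), and passed in 2 of 12 fits that left 1 array out. Fibroblast markers had 0 of 12 and keratinocyte markers 0 of 12 that rose or fell by limma, with 2 at an unadjusted p under 0.05 in each list. Their array means ran from 2.66 to 2.83 and from 2.56 to 2.81, and the medians of their differences were -0.02 and 0.08. On this log2 scale no marker has a value of 0, so their absence could not be read.

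Of the 14 nearest measured genes on the chromosome, 1 on each side of each gene, 1 rose and 0 fell. The one that rose was Kif4, next to Gdpd2 on the X chromosome, a kinesin of the mitotic spindle, by 0.48 ± 0.07 (limma, adjusted p = 0.00327), with means of 6.60 and 7.15 in ESC low and high and 6.69 and 7.11 in iPSC low and high, and it passed with the replicate block and in 12 of 12 fits that left 1 array out. Dlg3, on the other side of Gdpd2, differed by -0.04. Notch3 beside Ephx3 had the lowest value of the 14 at -0.35 ± 0.12 (limma, adjusted p = 0.185). The neighbours of Trim72 (Pycard and Itgam) differed by 0.03 and -0.14, those of Lsmem1 (Scin and Ifrd1) by 0.17 and -0.03, those of Plac8l1 (Sh3rf2 and Lars) by -0.04 and 0.03, and those of Adig (Ralgapb and Arhgap40) by 0.04 and -0.09. Snai1, on the other side of Ube2v1 from Tmem189, differed by 0.20 ± 0.11 (limma, adjusted p = 0.393) and passed without iPSC high 2 (0.31, adjusted p = 0.0471).

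**Figure D5:**
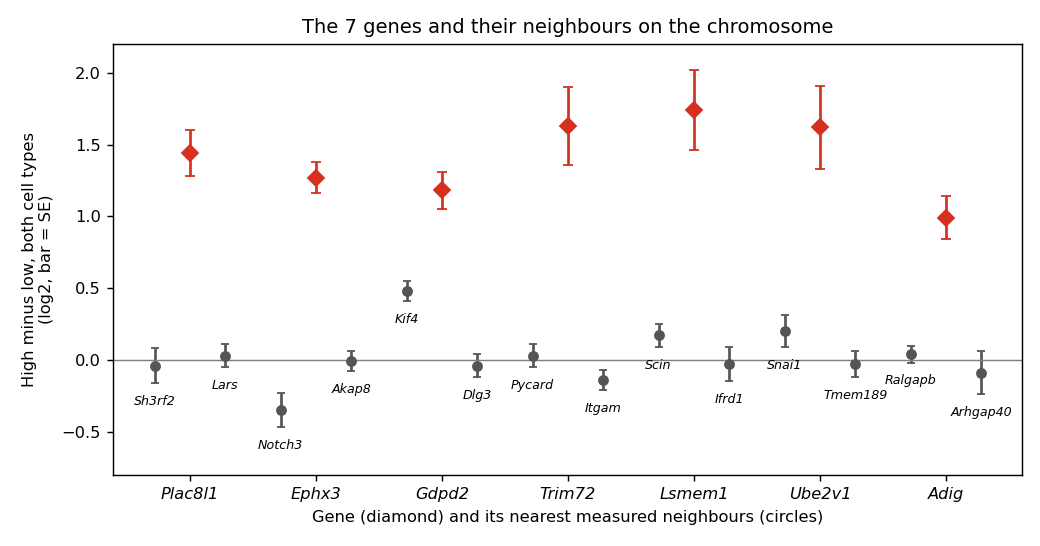
High minus low difference over both cell types (log2, bars are SE) of the 7 genes (red diamonds) and of the nearest measured gene on each side (grey circles). The 7 genes lie between 0.99 and 1.74 and the 14 neighbours between -0.35 and 0.48.

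Genes with the most similar pattern were found by the root mean square difference of the 12 values after each gene's mean was subtracted, over 19701 named genes. Of the genes searched, Ampd1, the AMP deaminase of skeletal muscle, was nearest to Trim72 (0.299) and to Lsmem1 (0.372). Cspg5, a neural proteoglycan, came second for both (0.340 and 0.405). Trim72 and Lsmem1 were 0.341 from each other, so Trim72 was nearer to Lsmem1 than Ampd1 was. Ephx3 was closest to Ntn3, a netrin (0.203), and Gpr75, a G protein-coupled receptor (0.213). Adig was closest to Ctsk, the collagen-degrading protease cathepsin K (0.209), and Fam72a (0.219), which was also the second nearest to Gdpd2 (0.243) after Ccdc116 (0.238).

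Plac8l1 lay nearest to Slc22a13b, of the organic anion transporter family (0.280), and to Fgf18, a fibroblast growth factor (0.282). Ube2v1 had no gene as close: Ntn3 was at 0.481 and Acss2os at 0.508, against a spread of 0.964 for Ube2v1 around its own mean. Distances grow with a gene's own spread, which was 1.04 for Lsmem1, 0.958 for Trim72, 0.803 for Plac8l1, 0.678 for Ephx3, 0.631 for Gdpd2 and 0.574 for Adig.

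None of the 7 motifs searched was in the start-site windows of all the genes. From the promoter table (RefSeq, GRCm38.p6), windows of 6 of the 7 genes were used, with 2 starts for Gdpd2. No window of Plac8l1 was used. The CCAAT box (CCAAT) was found on either strand in 4 of the 6, namely Trim72, Lsmem1, Gdpd2 and Adig, and in 37.4% of all windows. The 6 are counted by gene, with a match at any start, while the percentages count each window, so these are unlike measures. The GC box (GGGCGG) was found in Ube2v1 and Ephx3 and in 35.7% of all windows, and the TATA box (TATAAA) in Gdpd2 and in 13.6%. In Lsmem1 the CCAAT boxes began at -135 and -44 from the start, in Trim72 at -237, and the GC boxes of Ube2v1 at -162, -141 and -98. The CCAAT box of Adig began at 38, after the start.

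None of the 6 held the E-box CACGTG, the cell cycle homology sequence TTTGAA, the cAMP response element TGACGTCA or the NRF1 motif in these windows, which 7.15%, 17.9%, 1.79% and 0.971% of all windows did. No motif match overlapped another. A match or its lack describes these letters in these windows only.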

How the data were processed

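The authors deposited log2 expression values for 25206 probe sets in each of 12 arrays. They were made by RMA with affy 1.36.1 in R 2.15.1, per the submitters' processing notes. RMA removes background, brings all arrays to the same distribution and reduces the probes of a set to 1 log2 value. Neither the chip definition nor the genome build behind the probe sets was found in the sources used here. The small number of arrays limits the precision. Array medians ran from 3.51 to 3.61.

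The platform annotation named 1 gene for 23185 probe sets, several for 0 and none for 2021. A RefSeq table of GRCm38.p6 held the gene numbers of all 23185 and gave the gene order.

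A mean per group was fitted to all arrays at once in limma 3.58.1 (R 4.3.3), with moderated variances, no variance trend and p-values adjusted by Benjamini-Hochberg over all probe sets. The threshold was an adjusted p under 0.05. Counts at an unadjusted p under 0.05 have no share over all probe sets beside them and are description only. Every adjusted p is from limma. Differences are given with that fit's standard error and group means with their SD. The script was tested on simulated data. The comparisons were high minus low (averaged over cell types, and in each) and iPSC against ESC with equal weight on the fractions.

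The 7 genes, the gene lists and the motifs were chosen with earlier results of these data known. Text names were taken by rule: the 7 genes, every gene of a list of up to 7 genes, from longer lists up to 4 genes that passed (else up to 2) with the lowest p, the 2 genes of most similar pattern, the nearest measured gene on each side, and Pou5f1, Nanog and Sox2. Other list genes (such as Ube2v2, Dysf, Myod1, Myog, Ckm, Pparg, Adipoq, Alox12b and Aloxe3, and those that differed between cell types) were named after their values were seen. S100a11 and Ccnb1 of the lists had no probe set and were not analysed here.

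Within each cell type, low and high arrays of the same number deviated together from their group means (correlation over probe sets 0.23 to 0.34 in ESC and 0.11 to 0.21 in iPSC), so the numbers were read as pairs from the data, not from the labels. Between ESC and iPSC the same-number correlations ran from -0.09 to 0.13, and no pairing was assumed. The upper end overlaps the range within iPSC, so a shared batch was not excluded. Between ESC and iPSC arrays of unlike number the correlation reached 0.17 (ESC high 2 with iPSC high 3), above the lowest same-number value in iPSC. The pairing in iPSC is thus uncertain, and the block calls and pair counts over both cell types rest on it. Alternatives were median centring, dim probe sets left out, a variance trend, 1 cell type alone, the replicate block and each array left out.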

Additional observations from a re-analysis of the deposited data

Results flagged for a closer look

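Gdpd3 and Gdpd5, relatives of Gdpd2, drew attention because the high fraction lay lower in every ESC pair and higher in every iPSC pair. For Gdpd3 the high-minus-low difference was -0.11 ± 0.16 (SE) in ESC and 0.27 ± 0.16 in iPSC, and the iPSC effect minus the ESC effect was 0.38. For Gdpd5 the differences were -0.18 ± 0.11 and 0.27 ± 0.11, and the iPSC effect minus the ESC effect was 0.45. Neither interaction passed (limma, adjusted p = 0.9998 for both).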

How the results depend on the processing

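The members' high-minus-low differences moved by less than 1 SD between replicates and kept their sign under every alternative run. Leaving out or pairing arrays could not turn the sign, as every high array lay above every low array of its cell type. Leaving out 1 array at a time gave 380 to 695 probe sets called for high minus low over both cell types (631 with all arrays), 19 to 111 in ESC (90), 1 to 208 in iPSC (138; 1 without iPSC high 4) and 394 to 680 for iPSC minus ESC (724). With the replicate block, 177 passed in ESC and 236 in iPSC, and with ESC arrays alone 39. For iPSC minus ESC, the random replicate block gave 463 and averaging the pairs 63. Median centring lowered the share of higher calls from 63.9% to 49.5% over both cell types and from 63.8% to 45.2% in iPSC (70 higher, 85 lower).

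Among the lists, leaving out 1 array gave 0 to 1 calls for the epoxide hydrolases and for the epidermal lipid barrier genes, and 0 to 1 for the K63 genes. The K63 genes had 1 call with the replicate block and 2 with the variance trend (1 higher, 1 lower), and membrane repair had 1 with the block. For high minus low, the replicate block changed the calls of Ube2n and Cavin4 and of no other list gene or neighbour it was run for. The alternatives for the neighbours and for the 8 list genes that passed between cell types were chosen after seeing the data. Of those 8, 5 passed with the random block, 0 with pairs averaged and 3 in all 12 fits that left 1 array out, and their signs did not change.

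Differences close to 0 changed sign. Between cell types, Gdpd2 was 0.06 within the high fraction. Ube2v1 was -0.01 after centring, -0.19 within the high fraction and -0.18 to 0.19 with 1 array left out, and Adig was -0.01, -0.31 and -0.08 to 0.12. Plac8l1 was 0.34 to 0.59 with 1 array left out. Between fractions, Ephx2 was -0.01 after centring and -0.07 to 0.12 with 1 array left out, and Gdpd1 -0.01 to 0.20. With 1 array left out, neighbours near 0 ran from -0.03 to 0.02 (Akap8), -0.18 to 0.02 (Arhgap40), -0.10 to 0.04 (Ifrd1), -0.01 to 0.08 (Lars), -0.01 to 0.07 (Pycard), -0.12 to 0.05 (Sh3rf2) and -0.09 to 0.03 (Tmem189), and Lars and Pycard were each -0.01 after centring. The causes were not tested. The lack of detection calls limits what low values can show.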

Other observations

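Ordered by the averaged high-minus-low difference over the 25206 probe sets, Lsmem1 ranked 4, Trim72 5, Ube2v1 6, Plac8l1 14, Ephx3 26, Gdpd2 38 and Adig 64. Within the cell types the order moved most for Adig, which ranked 32 in ESC and 225 in iPSC, and for Gdpd2, at 69 and 27. Trim72 ranked 4 in ESC and 21 in iPSC, and Lsmem1 6 and 3. These ranks describe the values that chose the genes.

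The genes of most similar pattern were themselves higher in the high fraction, as the measure of likeness requires. Ntn3 differed by 1.51 ± 0.12 (SE), Ampd1 by 1.37 ± 0.22, Fgf18 by 1.37 ± 0.19, Slc22a13b by 1.27 ± 0.16, Gpr75 by 1.19 ± 0.15, Cspg5 by 1.12 ± 0.20, Acss2os by 0.99 ± 0.18, Ctsk by 0.93 ± 0.12, Fam72a by 0.91 ± 0.09 and Ccdc116 by 0.87 ± 0.13.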
